A study of Mus musculus with 6 samples.

Results

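The genes described here are the 10 enzymes that make serine, pass its carbon to folate and make asparagine: Phgdh, Psat1, Psph, Shmt1, Shmt2, Mthfd1, Mthfd2, Mthfd1l, Aldh1l2 and Asns. They were taken by gene symbol from a deposited table of 43548 genes, and all 10 were among the 12879 genes that were tested. Met-1 is a mouse mammary carcinoma line of FVB/nJ origin, derived from a late-stage tumor of the MMTV-PyMT model, in which a mammary promoter drives a viral oncogene. Met-1 TripZ-200c cells, which make up both groups, carry an inducible lentiviral vector with the precursor of miR-200c. The line is a single clone, sorted for cells that are silent without doxycycline (Dox) and of intermediate vector fluorescence with it. Cells received vehicle or 1 µg/mL Dox for 48 h, with 3 mRNA libraries per group, and the labels give the same serum-containing media for both groups. They name DMEM for growth and RPMI for treatment, and the study's methods also give 48 h, although a figure legend of the study points to samples treated for longer. The 48 h of the labels was used. Every library came from cells with the vector, so effects of miR-200c and of Dox itself cannot be told apart here. No label ties the 3 libraries of a group to separate cultures, and p-values measure the spread between these libraries, which may be technical.

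Serine is made in the cytosol from a glycolytic intermediate by Phgdh, Psat1 and Psph acting in turn. Serine hydroxymethyltransferases, Shmt1 in the cytosol and Shmt2 in the mitochondrion, convert serine to glycine and load a carbon unit onto tetrahydrofolate, and this unit serves the synthesis of purines and thymidylate. In the mitochondrion Mthfd2 oxidizes the loaded folate, Mthfd1l releases formate, and Aldh1l2 can burn the unit to carbon dioxide, while in the cytosol the trifunctional Mthfd1 takes up formate and handles the same folate steps. Asns makes asparagine from aspartate and glutamine. Several of these genes are known targets of Atf4, the transcription factor that cells raise when amino acids are scarce, and the mitochondrial arm is known for high expression in proliferating tumor cells.

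The vector's product is the first sequence to consider, since its seed is what pairs with target mRNAs. It is shown as RefSeq gives it for mouse miR-200c-3p (GRCm38.p6, chr6:124718324-124718346, minus strand), with the seed, bases 2 to 8, in capitals:
mmu-miR-200c-3p: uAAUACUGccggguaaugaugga
Its complement in a target is CAGTATT. The longest annotated 3′ UTR of each enzyme gene, between 136 bases in Phgdh and 3132 bases in Aldh1l2, was searched for it, and 0 of 10 held it. The same match was in 16.0% of the longest 3′ UTRs of 10835 tested genes, whose median length was 1201 bases against 650 bases for the enzymes.

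Promoters, here the 250 bases before and 50 bases after a RefSeq start site, were held for 9 of the 10 genes. They were searched on both strands for TGATGNAA, the core of the element that binds Atf4 with C/EBP proteins, and for the E box CACGTG, which Myc binds. TGATGNAA occurred in the Asns promoter alone among the 9 genes, starting 23 bases before the start site. It was held by 4.51% of 27025 genes with a promoter, and by 3.97% of all 32851 promoters. CACGTG occurred in 0 of the 9 genes, against 8.09% of the 27025 genes and 7.15% of all promoters. A match to either of these 2 motifs cannot lie wholly within a match to the other, though their ends can share letters. The Asns promoter is shown because it holds the only match, in capitals, and the Mthfd2 promoter because Mthfd2 had the largest change of the 10 genes; both are given 5′ to 3′ on the gene's strand. A match describes letters only, and binding was not measured.
Asns, chr6:7693160-7693459, GRCm38.p6, minus strand: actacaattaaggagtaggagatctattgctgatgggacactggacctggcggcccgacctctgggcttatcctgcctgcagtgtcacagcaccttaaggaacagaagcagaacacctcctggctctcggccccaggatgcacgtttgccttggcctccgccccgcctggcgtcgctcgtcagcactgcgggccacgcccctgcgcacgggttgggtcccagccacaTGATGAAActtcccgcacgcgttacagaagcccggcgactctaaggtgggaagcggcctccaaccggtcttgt
Mthfd2, chr6:83317555-83317854, GRCm38.p6, minus strand: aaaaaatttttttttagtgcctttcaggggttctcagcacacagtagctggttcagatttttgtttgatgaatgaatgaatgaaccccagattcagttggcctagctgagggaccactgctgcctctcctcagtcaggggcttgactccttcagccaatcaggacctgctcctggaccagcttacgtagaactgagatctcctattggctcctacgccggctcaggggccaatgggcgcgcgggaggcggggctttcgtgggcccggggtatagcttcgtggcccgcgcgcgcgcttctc

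Expression was given as FPKM, a fragment count corrected for gene length and library size, so levels of different genes can be set side by side. Library sums of FPKM ranged from 800267 to 815139, with 16867 to 18012 genes above 0. FPKM does not show the number of reads, but steps between the lowest values gave the relative depth of the libraries: against 1 for replicate 1 without Dox, it was 0.921 and 1.31 for replicates 2 and 3 without Dox, and 0.985, 1.49 and 1.12 for replicates 1, 2 and 3 with Dox. The labels were checked on Zeb1 and Zeb2, the repressors of epithelial genes that miR-200c targets. Zeb1 fell from 41.8 ± 0.682 to 21.2 ± 2.05 FPKM and Zeb2 from 29.3 ± 1.43 to 8.29 ± 0.661 FPKM (mean ± SD, n = 3 per group), while the short miR-200c gene was listed at 0 in all 6 libraries. The summed FPKM of 5 epithelial markers, nearly all from Krt18 and Krt7, was 134.8 to 144.5 without Dox and 644.0 to 680.8 with it. Epcam averaged 0.128 without and 4.06 FPKM with Dox (adjusted p = 5.3e-04, limma). Cdh1, a defining epithelial gene, averaged 0.0585 and 0.828 FPKM, and Krt8 averaged 0.262 and 0.736 FPKM. For each of them every library with Dox was above every library without. However, Cdh1 reached no more than 1.24 FPKM and Krt8 no more than 0.918 FPKM, and both were too low to be tested. Of 5 mesenchymal markers, Zeb1, Zeb2 and Vim were lower with Dox, Vim at 3104 against 3961 FPKM on average. Cdh2 averaged 104.6 without and 100.3 FPKM with Dox. Fn1, missing in replicate 3 of both groups, averaged 263.2 without and 274.3 FPKM with Dox. Of 4 immune markers, Adgre1 and Cd3e were at 0 in all libraries, Ptprc was at no more than 0.161 FPKM, and the sum, 6.34 to 11.3 without and 6.70 to 7.57 FPKM with Dox, came nearly all from Cd68. The 4 endothelial markers summed to 4.47 to 5.12 and 4.19 to 4.59 FPKM, nearly all from Cdh5, with Pecam1 and Tek under 0.1 FPKM in every library, and of the 4 fibroblast markers Pdgfra was at 14.4 to 18.8 FPKM and the others under 1 FPKM. In bulk cells, a change in the share of cells that express a gene and a change in RNA per cell cannot be told apart.

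With Dox, 4 of the 10 enzyme genes rose: Mthfd2 and Shmt2 of the mitochondrial folate arm, Psph, the last step of serine synthesis, and Asns. None of the 10 fell at the same threshold, an adjusted p under 0.05 in limma over all 12879 genes. The changes were small. The largest, in Mthfd2, was 20.3% in FPKM, and the most highly expressed genes of serine synthesis, Phgdh and Psat1, differed by 3.17% and 0.327%. Among all genes tested 15.0% were called, 7.06% higher and 7.97% lower, against 4 of 10 and 0 of 10 of the enzymes. These shares are not at like expression, since 35.7% of the genes tested had a mean above that of Shmt1, the lowest enzyme. All enzymes but Shmt1 had a standard error under the median of 0.0815 over all genes tested. Without the variance trend of limma, 1 of the 10 was called higher, and over the 12879 genes 665 were higher and 830 lower. The part of expression level in these shares was not tested. At an unadjusted p under 0.05, 7 of the 10 passed, of which 2 were lower, Shmt1 and Aldh1l2. The share of all genes at that looser threshold was not counted, so the 15.0% above is no background for it. An unmoderated linear model called 3 of 10 higher and 0 of 10 lower, with Psph no longer called (adjusted p = 0.085). Over the 12879 genes that model called 598 higher and 692 lower. The median log2 fold change of the 10 was 0.08, against 0.00 over all genes tested, whose quartiles were -0.13 and 0.12, and the genes called anywhere in the table had a median absolute log2 fold change of 0.36. The 3 libraries of each group did not overlap in 6 of the 10 genes, 5 higher and 1 lower with Dox, against 17.4% of all genes higher and 17.6% lower.

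**Figure D1:**
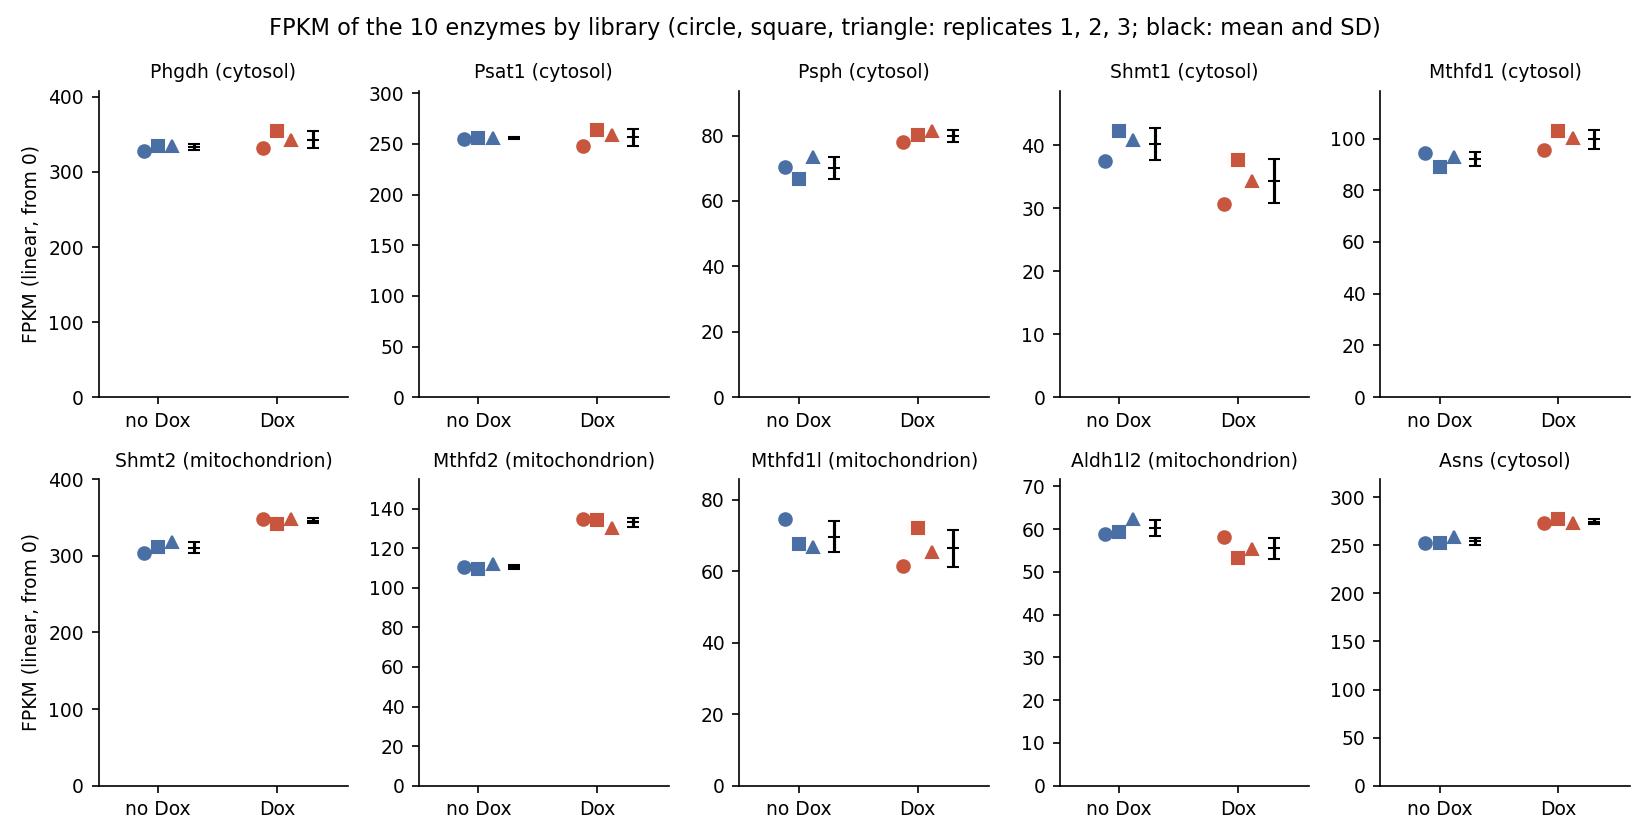
FPKM (linear axes from 0) of each of the 10 enzymes in the 3 libraries without Dox (blue) and the 3 with Dox (red), with symbols for replicates and the mean ± SD in black. The red points lie above all blue ones for Psph, Mthfd1, Shmt2, Mthfd2 and Asns, below them for Aldh1l2, and overlap them for the other 4 genes.

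Phgdh (chr3:98313170-98339990, minus strand; all gene positions are GRCm38 with the GENCODE vM21 annotation) oxidizes 3-phosphoglycerate and opens serine synthesis. Its libraries without Dox had 328.1, 335.1 and 334.8 FPKM, and those with Dox 332.4, 355.2 and 342.0 FPKM. The groups overlapped, with the highest value in replicate 2 with Dox. Its log2 fold change was 0.04 (95% interval -0.03 to 0.12, adjusted p = 0.421, limma). The Phgdh level is uncertain because processed pseudogenes copy its coding region. One of them, listed as AC118721.1, matched 84.3% of the Phgdh transcript at 95% identity or more and was itself at 459.6 to 494.0 FPKM, above Phgdh in every library. How reads shared between them were divided is not given in the sources used here. AC118721.1 also differed little between the groups, with a log2 fold change of 0.06 (-0.01 to 0.12, adjusted p = 0.205, limma).

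Psat1 (chr19:15904678-15947337, minus strand), the aminotransferase of the second step, was at 254.4, 256.0 and 256.2 FPKM without Dox and 247.5, 263.2 and 258.5 FPKM with Dox. The libraries without Dox lay within 2 FPKM of each other and inside the wider range of those with Dox. The log2 fold change was 0.00 with an interval of -0.07 to 0.08 (adjusted p = 0.949, limma). Psph (chr5:129765558-129787449, minus strand), the phosphatase that releases serine, was at 70.3, 66.7 and 73.5 FPKM without Dox and 78.0, 80.2 and 81.5 FPKM with Dox. All 3 libraries with Dox were above the 3 without, and Psph rose by 0.19 on the log2 scale (SE 0.05, interval 0.08 to 0.30, adjusted p = 0.0383, limma). Of its exonic bases 452, or 10.4% (26.1% of its longest coding transcript), overlap Cct6a, a chaperonin subunit gene on the opposite strand. Cct6a was at 275.1 to 310.7 FPKM and rose by 0.12 (adjusted p = 0.0372). The libraries were made with a stranded kit, but whether strand was used in counting is not given, and the part of Cct6a reads in the Psph value was not tested. The call for Psph held in 6 of 15 alternative settings, and in 1 of the 6 that leave out a library, the one without replicate 3 of the cells without Dox; the highest adjusted p among the 15 was 0.123. The summed FPKM of the 3 serine synthesis genes was 652.8 to 664.5 without and 657.9 to 698.5 with Dox, so the groups overlapped.

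In the mitochondrial folate arm, Mthfd2 and Shmt2 rose and Mthfd1l and Aldh1l2 did not pass. Mthfd2 (chr6:83305691-83325908, minus strand), the dehydrogenase and cyclohydrolase, was at 110.6, 109.5 and 111.8 FPKM without Dox and 134.8, 134.1 and 130.5 FPKM with Dox. The gap between the groups, from 111.8 to 130.5 FPKM, was wider than the range within either. Mthfd2 rose by 0.27 on the log2 scale (SE 0.03, interval 0.19 to 0.34, adjusted p = 0.00235, limma) and was called in all 15 alternative settings. Shmt2 (chr10:127517123-127522444, minus strand) was at 303.3, 311.1 and 317.7 FPKM without Dox and 347.7, 342.1 and 348.1 FPKM with Dox. Every library with Dox was higher than every library without, and Shmt2 rose by 0.16 (SE 0.03, interval 0.09 to 0.22, adjusted p = 0.0129, limma). In 13 of 15 settings the call held. Without replicate 3 with Dox the adjusted p was 0.0559, and without the variance trend of limma it was 0.0664.

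Mthfd1l (chr10:3973118-4167081, plus strand), the monofunctional formate-tetrahydrofolate ligase, was at 74.7, 67.7 and 66.8 FPKM without Dox and 61.6, 72.1 and 65.5 FPKM with Dox. The groups overlapped and the log2 fold change was -0.07 (interval -0.24 to 0.10, adjusted p = 0.566, limma). Aldh1l2 (chr10:83487450-83534140, minus strand), the formyltetrahydrofolate dehydrogenase, was at 58.9, 59.2 and 62.4 FPKM without Dox and 58.0, 53.2 and 55.2 FPKM with Dox. All values with Dox were below those without, though the nearest pair were almost level, and the log2 fold change was -0.12 (interval -0.23 to -0.00, adjusted p = 0.165, limma). Of the exonic bases of Aldh1l2, 1056 (14.1%, or 17.5% of its longest coding transcript) overlap D10Wsu102e on the opposite strand. That gene was at 45.0 to 45.3 FPKM without and 40.0 to 43.7 FPKM with Dox, and its part in the Aldh1l2 value was not tested.

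The cytosolic folate genes pointed in opposite directions and neither passed. Shmt1 (chr11:60788104-60811718, minus strand), the lowest of the 10 enzymes, was at 37.4, 42.4 and 40.8 FPKM without Dox and 30.7, 37.7 and 34.4 FPKM with Dox. Replicate 2 with Dox was just above replicate 1 without, and the other 2 libraries with Dox were below the whole group without. The log2 fold change was -0.23 (SE 0.09, interval -0.43 to -0.03, adjusted p = 0.122, limma). Mthfd1 (chr12:76255298-76319803, plus strand) was at 94.6, 88.9 and 92.8 FPKM without Dox and 95.8, 103.1 and 100.3 FPKM with Dox. The groups did not overlap, and the log2 fold change was 0.11 (interval 0.01 to 0.22, adjusted p = 0.134, limma).

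Asns (chr6:7675169-7693254, minus strand) was at 252.5, 252.0 and 258.4 FPKM without Dox and 273.4, 277.3 and 272.8 FPKM with Dox. The groups were separated by more than the range within either, and Asns rose by 0.11 on the log2 scale (SE 0.03, interval 0.05 to 0.17, adjusted p = 0.0351, limma). The size hardly moved between settings, from 0.09 to 0.12, but the call held in 6 of 15 of them and in 0 of the 6 that leave out a library, where the adjusted p reached 0.108.

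**Figure D2:**
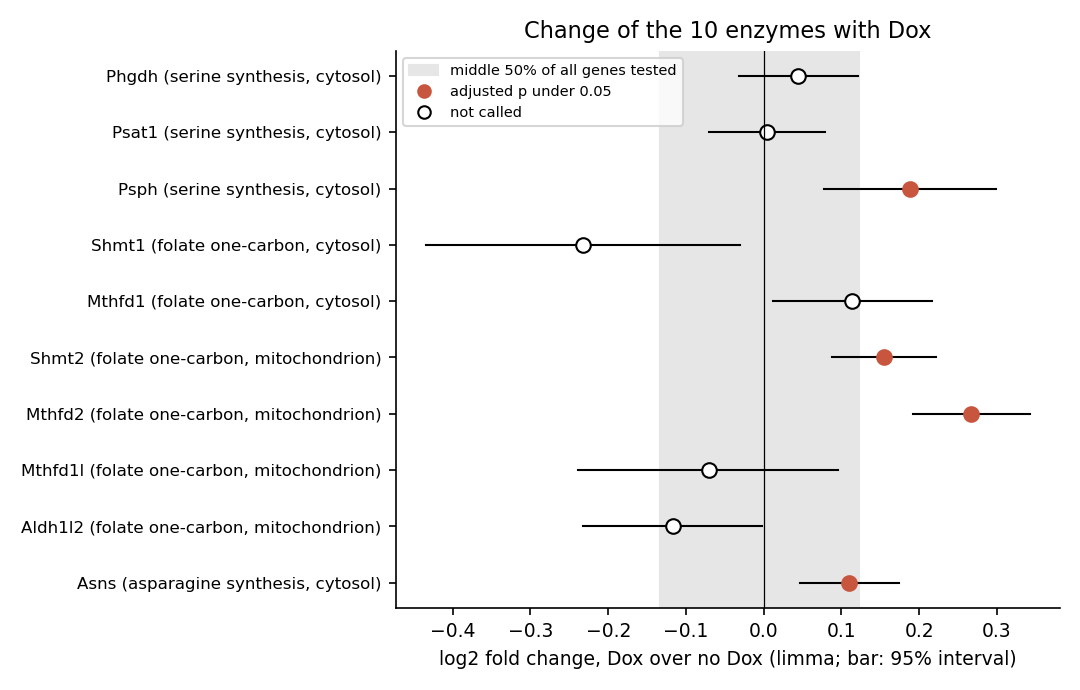
log2 fold change (Dox over no Dox) of each enzyme gene from limma, with its 95% interval, filled where the adjusted p was under 0.05; the grey band is the middle 50% of all genes tested. Mthfd2 at 0.27, Psph at 0.19, Shmt2 at 0.16 and Asns at 0.11 are filled, and Shmt1 at -0.23 is the lowest.

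The comparison of compartments was made within each library, as a ratio of FPKM of the mitochondrial to the cytosolic enzyme. Shmt2 over Shmt1, the pair that catalyzes the same reaction, was 8.10, 7.35 and 7.78 without Dox and 11.3, 9.07 and 10.1 with Dox. The ratio was 1.31-fold higher with Dox on average, a log2 difference of 0.39, and the groups did not overlap. The difference joined a higher Shmt2 and a Shmt1 whose own change did not pass. Mthfd2 over Mthfd1 was 1.17, 1.23 and 1.21 without Dox and 1.41, 1.30 and 1.30 with Dox, a log2 difference of 0.15. Mthfd1l over Mthfd1 went the other way, from 0.789, 0.761 and 0.720 to 0.643, 0.699 and 0.653, a log2 difference of -0.19. In each of the 3 ratios the groups did not overlap, and the two-sided exact permutation test gave p = 0.1, the smallest that 3 libraries against 3 allow (0.1 after Benjamini-Hochberg adjustment over the 3 ratios), so this test could not place any of them past 0.05, and no other test of the ratios was made.

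**Figure D3:**
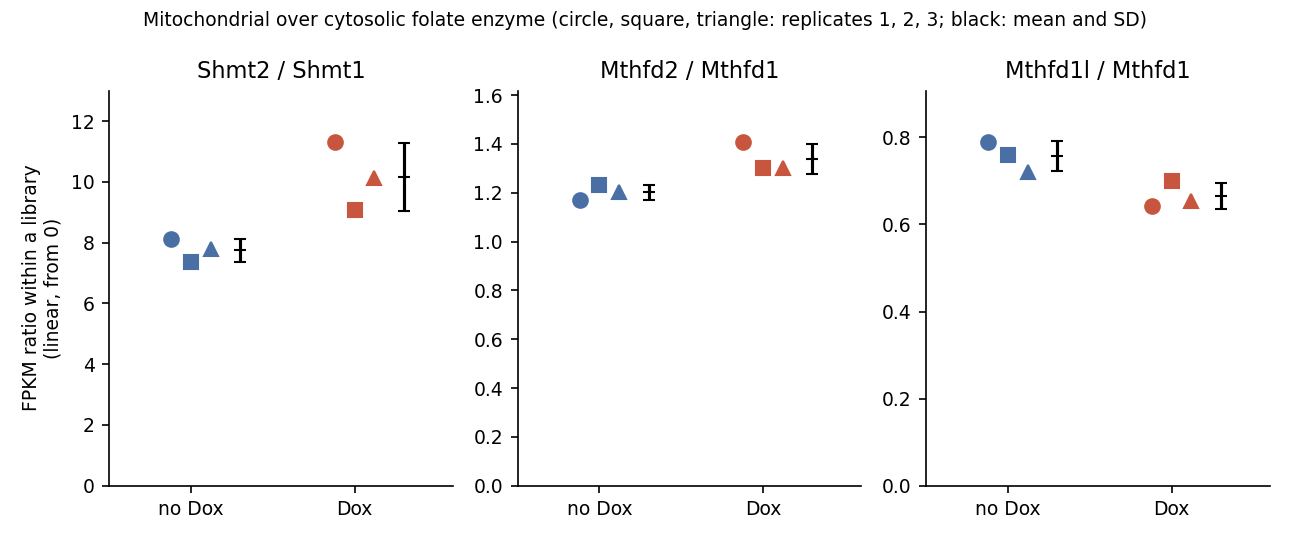
Ratio of FPKM of a mitochondrial to a cytosolic folate enzyme within each library (linear axes from 0), with symbols for replicates and the mean ± SD in black. Shmt2 over Shmt1 and Mthfd2 over Mthfd1 lie higher with Dox in all 3 libraries, and Mthfd1l over Mthfd1 lies lower.

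The 4 mitochondrial genes summed to 547.5, 547.6 and 558.6 FPKM without Dox and 602.1, 601.5 and 599.4 FPKM with Dox, 1.09-fold higher. Shmt2 alone made up 56.4% of that sum without Dox, so the sum largely follows Shmt2. The 2 cytosolic genes summed to 131.3 to 133.6 FPKM without and 126.5 to 140.8 FPKM with Dox, and these ranges overlapped. The mitochondrial sum was 4.15 to 4.18 times the cytosolic sum without Dox and 4.27 to 4.76 times with it. The wider spread with Dox came with the cytosolic sum, which was lowest in replicate 1 and highest in replicate 2. The same 2 libraries had the lowest and the highest relative depth with Dox. FPKM with Dox rose in the order of relative depth (replicates 1, 3, 2) in 5 of the 10 enzymes and in 22.5% of 12875 genes, and in the reverse order in 1 of 10 and 13.8%. Without Dox, 3 of 10 followed the depth order against 16.9% of all genes. The part of depth in these values was not tested.

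The order of levels changed at its top. Without Dox, Phgdh at 332.7 ± 3.96 FPKM was highest, followed by Shmt2 at 310.7 ± 7.17 FPKM, with no overlap between their libraries. With Dox, Shmt2 at 346.0 ± 3.34 and Phgdh at 343.2 ± 11.4 FPKM (mean ± SD, n = 3) overlapped. Psat1 and Asns overlapped without Dox, at 255.6 and 254.3 FPKM, whereas with Dox every Asns library was above every Psat1 library. Below these, Mthfd2, Mthfd1, Psph, Mthfd1l, Aldh1l2 and Shmt1 followed in the same order of means in both groups, and among these neighbours only Psph and Mthfd1l without Dox overlapped. The place of Phgdh in this order carries the uncertainty from its pseudogenes. The enzymes were well expressed in both groups: 35.7% of the genes tested had a mean above that of Shmt1, the lowest, and 2.66% above that of Phgdh, the highest.

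Genes around the pathway were described by lists written with earlier results of these data known. The share of all genes at an unadjusted p under 0.05 was not counted, so the unadjusted counts below have none beside them. Of 11 regulators of the amino acid and stress response, 2 rose and 0 fell in limma (5 were higher and 1 lower at an unadjusted p under 0.05, and the unmoderated model also called 2 and 0), with a median log2 fold change of 0.12. The share called, 18.2%, was near the 15.0% of all genes tested that were called in either direction. All of it was higher, against 7.06% higher over all genes. Atf4 had 342.8, 334.8 and 345.9 FPKM without Dox, then 379.0, 380.5 and 384.0 FPKM with Dox, and rose by 0.16 (adjusted p = 0.00829). Trib3, a pseudokinase induced by Atf4, rose from 44.2 ± 2.93 to 53.5 ± 0.589 FPKM, by 0.28 (adjusted p = 0.0179). For both genes every library with Dox was above every library without. Ddit3, the stress factor CHOP, had a log2 fold change of -0.17 (interval -0.29 to -0.05, adjusted p = 0.0629), and was picked for mention after its value was seen because its sign was opposite to that of Atf4.

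Of 10 amino acid transport genes, 9 were tested, 2 rose and 0 fell (4 higher and 1 lower unadjusted, 2 and 0 in the unmoderated model, median 0.08), against 7.06% higher and 7.97% lower over all genes. These were Slc1a5, which carries glutamine and other neutral amino acids, from 20.8 ± 1.86 to 27.7 ± 3.00 FPKM (0.41, adjusted p = 0.0350), and the glutamine carrier Slc38a1, from 45.1 ± 0.605 to 56.0 ± 1.64 FPKM (0.31, adjusted p = 0.00402). Of 10 genes of glutamate, proline and aspartate synthesis, 3 rose and 1 fell (3 higher and 3 lower unadjusted, 1 and 0 in the unmoderated model, median 0.07), so 40.0% were called in limma against 7.06% higher and 7.97% lower over all genes, and most of these calls were lost in the unmoderated model. Aldh18a1 and Pycr1, which act in proline synthesis, rose by 0.29 (adjusted p = 0.00377) and 0.25 (adjusted p = 0.0242). Got2, the mitochondrial aminotransferase that makes aspartate, rose by 0.11 (adjusted p = 0.0456), and Oat, which links ornithine to proline and glutamate, fell by 0.21 on the log2 scale (adjusted p = 0.0267).

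Of 15 genes of the folate cycle and folate transport, 13 were tested, 0 rose and 2 fell (1 higher and 2 lower unadjusted, 0 and 0 in the unmoderated model, median 0.06). The called part, 15.4%, was near the 15.0% of all genes called in either direction. All of it was lower, against 7.97% lower over all genes. Ggh, which trims the glutamate tail of folates, fell from 16.4 ± 1.68 to 12.6 ± 0.310 FPKM (-0.37, adjusted p = 0.0333), and the folate transporter Slc46a1 fell from 5.92 ± 1.08 to 3.74 ± 0.235 FPKM (-0.64, adjusted p = 0.0339). The lists that follow are short, and their counts stand beside 7.06% higher and 7.97% lower over all genes in limma. Of 8 purine synthesis genes 0 were called in limma and 0 in the unmoderated model, although 2 were higher at an unadjusted p under 0.05 and the median was 0.10. Of 8 genes of the methionine cycle, transsulfuration and glutathione synthesis 0 were called by either (1 lower unadjusted, median 0.03). The 1 lower gene was Gclc, of glutathione synthesis. Of the glycine cleavage genes 3 of 4 were tested and 0 were called by either (0 unadjusted, median 0.04), and Gldc, its decarboxylase, averaged 0.0689 and 0.0163 FPKM. Of 6 genes listed for serine and asparagine breakdown 3 were tested and 0 were called by either (1 lower unadjusted, median -0.49). Among these 3, Asnsd1 (log2 fold change 0.12) is named for an asparagine synthetase domain rather than for breakdown. Of 10 proliferation genes 0 rose (2 higher unadjusted, 0 in the unmoderated model) and 1 fell. This was Rrm2, the ribonucleotide reductase subunit, from 199.4 ± 4.48 to 129.3 ± 3.14 FPKM (-0.63, adjusted p = 1.1e-04), and the median of the list was 0.08.

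**Figure D4:**
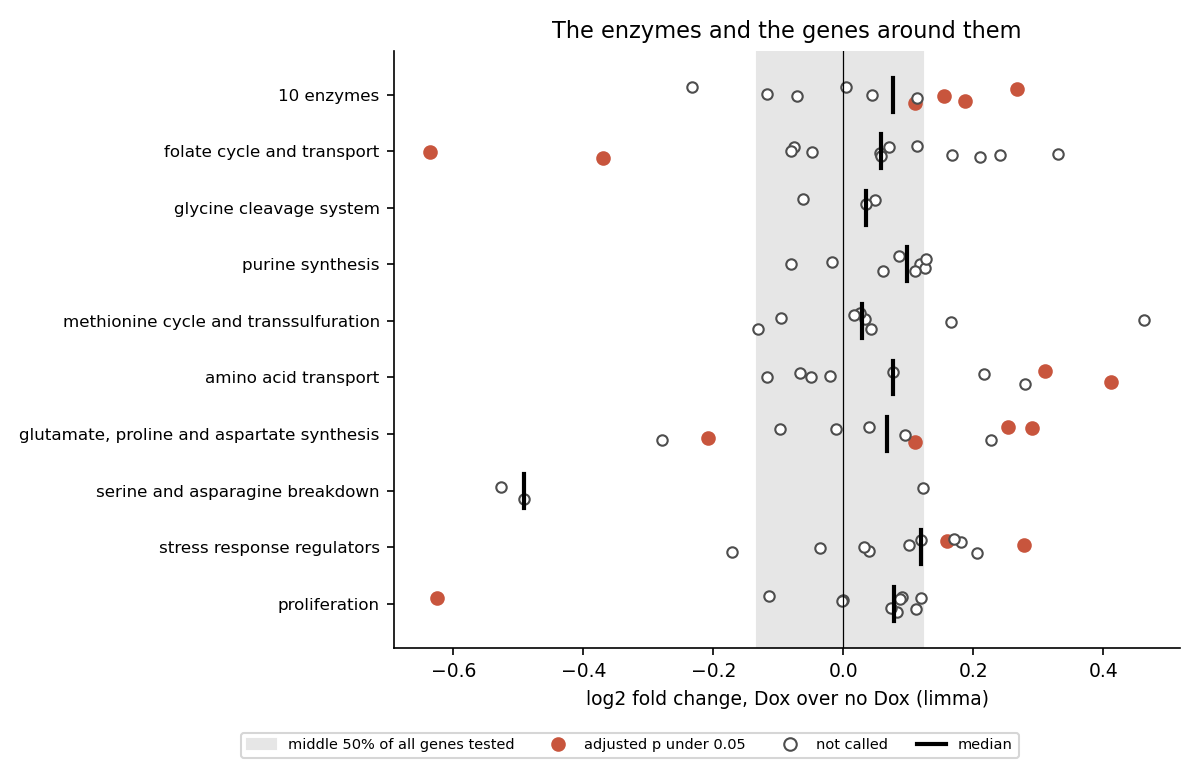
log2 fold change (Dox over no Dox, limma) of the 10 enzymes and of the tested genes of the 9 lists around them, one point per gene, filled where the adjusted p was under 0.05, with the list median as a black line and the middle 50% of all genes tested in grey. The medians lie between -0.49 for the 3 tested genes of the breakdown list and 0.12 for the stress response regulators. The lowest filled points are Slc46a1 at -0.64 and Rrm2 at -0.63.

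Finally, the genes whose 6 values ran most like those of Mthfd2 and of Asns were sought among the 9147 genes that averaged 10 FPKM or more, by the root mean square difference of log2 values centred on each gene's mean. For Mthfd2 these were Esyt1 (0.0116), the processed pseudogene Gm16425 (0.0146) and Ptpn2 (0.0147), a tyrosine phosphatase. Ptpn2 was at 103.7, 100.7 and 106.4 FPKM without Dox and 125.6, 125.5 and 121.8 FPKM with Dox. For Asns they were Nmt2 (0.0044), the proteasome subunit Psmc2 (0.00616) and Fam207a (0.00823). None of these 6 genes is on the lists above. A search of this kind always returns nearest genes, and whether they share regulation with Mthfd2 or Asns was not tested.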

How the data were processed

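The 6 mRNA libraries of Met-1 TripZ-200c cells were put in 2 groups of 3 by their labels. The authors used a stranded Illumina kit, mapped single reads with gSNAP to the mouse genome (GRCm38.p6, with an FVB/NJ assembly also named) and deposited FPKM per gene and library, made with Cufflinks. The table also holds the authors' group means, fold changes, p-values and q-values, which were not used. Its 43611 rows hold 43548 identifiers; 63 repeats were dropped, keeping the highest mean, a placeholder of 999999999 in 6 values of 4 genes was set to missing, and 0 columns of per-sample values were left unused.

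Genes that averaged 1 FPKM or more were tested on log2(FPKM + 0.1), a scale that understates changes of low genes, with limma 3.58.1 in R 4.3.3 (trend on, group as the only term, two-sided, Benjamini-Hochberg, threshold 0.05). The script was checked on simulated data. Symbols were matched in the table or, for Pycr3, through a RefSeq synonym (Pycrl), and pseudogenes and overlapping neighbours by gene ID. Shared sequence was found with BLAST 2.17.0 (identity of 95% or more, 50 bases or longer). Gene positions and 3′ UTRs are from GENCODE vM21, and sequences from RefSeq (GRCm38.p6). Tables used pandas 2.3.3 and numpy 2.4.6 under Python 3.11.15, and plots matplotlib 3.10.9.

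The members and lists were chosen with earlier results of these data known. All members are named; from each list, up to 3 called genes in each direction with the largest change; and for Mthfd2 and Asns the 3 genes most like them. Ddit3, Gldc, Asnsd1, Gclc, Srr and Asrgl1 were named after their values were seen. An immune marker that was on the list is left out of the markers and their sum and is not reported here. Relative depth was read from the ratio most frequent among genes under 0.1 FPKM in both libraries. Alternatives were pseudocounts of 1 and 0.01, no filter, a minimum mean of 5 FPKM, quantile normalization, median scaling, no trend, an unmoderated linear model on log2(FPKM + 1), a replicate block and leaving out each library.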

Additional observations from a re-analysis of the deposited data

How the results depend on the processing

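Mthfd2 was called in 15 of 15 alternatives, Shmt2 in 13, Psph and Asns in 6 each, and the other 6 enzymes in 0. The number of enzymes called higher, 4, became 3 with no filter, with quantile normalization and in the unmoderated linear model. It became 1 with no trend and 1 to 3 when a library was left out, while 0 were lower throughout these settings. Over all genes, 909 were higher and 1026 lower. The unmoderated linear model called 598 higher and 692 lower. With a library left out, 479 to 688 were higher and 590 to 709 lower. The sign of Psat1 turned to -0.012 under quantile normalization, and its log2 fold change ran from -0.015 (without replicate 2 with Dox) to 0.029 with a library left out. The log2 differences of the ratios ran from 0.31 to 0.47 for Shmt2 over Shmt1, from 0.12 to 0.17 for Mthfd2 over Mthfd1 and from -0.22 to -0.15 for Mthfd1l over Mthfd1 with a library left out. The cause of these changes was not tested, except that leaving out a library leaves fewer samples.

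The groups share replicate numbers in the labels, but nothing says what a number marks, and after subtraction of group means, libraries that share a number correlated over genes at 0.0287, 0.0359 and -0.00759. With the replicate block, 2 of the 10 enzymes were called higher, Mthfd2 (adjusted p = 0.0181, limma) and Shmt2 (0.0433), Psph and Asns were at 0.0674 and 0.0984, and 633 genes were higher and 704 lower. FPKM hides the number of reads, so no counting interval can be given.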
